A study of Mus musculus with 6 samples.

Results

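The 10 genes described here are Spry1, Spry2, Spry4, Spred1, Spred2, Dusp4, Dusp5, Dusp6, Etv4 and Etv5, the feedback inhibitors and Ets target genes of receptor tyrosine kinase signalling. They were chosen by name, and each matched exactly 1 of the 37991 gene rows of the count files by its Ensembl identifier. All 10 were among the 15035 genes that passed the filter on low counts. RNA was sequenced from Nestin-GFP-positive cells sorted from skin of mouse pups aged 3 days, after removal of the epidermis, that is from dermis together with the white fat below it. Mutant cells, in 3 libraries, have the genotype Nes-GFP;Nes-Cre;PDGFRα+/[S]D842V. Mutant mice carry the Nestin-GFP reporter, the Nestin-Cre recombinase and 1 Pdgfra allele with the activating change D842V. Control cells, also in 3 libraries, are labelled Nes-GFP+ cells, with the reporter and neither Cre nor the mutant allele in the label. The recombinase and the allele therefore cannot be told apart in any difference below. The labels do not say whether each library is a single mouse. The labels do not explain "[S]". Nestin-Cre acts in cells in which the Nestin regulatory sequence is or has been active.

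When a growth factor binds a receptor tyrosine kinase such as Pdgfra, the receptor passes a signal through Ras and a chain of kinases that ends in ERK. ERK enters the nucleus and raises transcription of early response genes and of genes whose products damp the pathway. Sprouty and Spred proteins act between the receptor and Raf, Dusp4, Dusp5 and Dusp6 remove the activating phosphates from ERK and its relatives, and Etv4 and Etv5 are Ets transcription factors whose genes are widely used as readouts of growth factor signalling.

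The promoters of the 2 genes that rose in mutant cells and of Dusp5, the gene with a serum response motif, are shown as the 250 bases before the annotated start, 5′ to 3′ on the gene's strand. The sequences are RefSeq's, from build GRCm38.p6, in which the Spry1 window is chr3:37639697-37639946 on the plus strand, the farther upstream of the 2 Etv5 windows is chr16:22439571-22439820 on the minus strand, and the Dusp5 window is chr19:53528895-53529144 on the plus strand. Capitals mark CArG boxes, the binding motif of serum response factor, and the Ets-type motif AGGAAG on either strand.
Spry1: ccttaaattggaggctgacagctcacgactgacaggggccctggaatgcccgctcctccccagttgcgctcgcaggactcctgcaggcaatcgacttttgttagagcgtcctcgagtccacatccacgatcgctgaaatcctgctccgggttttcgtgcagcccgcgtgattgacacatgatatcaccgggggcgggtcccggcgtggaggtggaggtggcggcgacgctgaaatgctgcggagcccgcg
Etv5: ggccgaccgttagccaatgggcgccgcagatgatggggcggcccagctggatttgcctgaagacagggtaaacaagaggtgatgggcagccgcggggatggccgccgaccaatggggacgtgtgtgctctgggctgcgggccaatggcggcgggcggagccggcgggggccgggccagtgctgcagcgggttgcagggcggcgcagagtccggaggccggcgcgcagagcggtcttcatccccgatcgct
Dusp5: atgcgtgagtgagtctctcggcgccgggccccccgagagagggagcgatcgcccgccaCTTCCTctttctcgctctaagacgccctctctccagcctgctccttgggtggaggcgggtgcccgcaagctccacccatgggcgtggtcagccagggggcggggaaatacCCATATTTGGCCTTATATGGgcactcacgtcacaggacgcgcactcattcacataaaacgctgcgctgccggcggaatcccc

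Of the 10 genes, 7 had such a promoter entry, with 8 windows in all. The Dusp5 window held 2 CArG boxes lying end to end, with first bases 82 and 72 before the start, and no other window of these genes held a CArG box. Among 32851 promoter windows of the same length 1.47% held at least 1 CArG box and 0.0183%, or 6 windows, held 2 or more. AGGAAG was found in the Dusp5, Dusp6 and Spred2 windows and in 29.5% of all windows, and TGACG in the Dusp5 and Spred2 windows and in 17.8% of all. CCGGAA, held by 3952 of all windows, and TGANTCA, held by 6.75% of them, were in none of the 8. Each motif was sought on both strands, and the motifs were chosen with these sequences in view. A match describes the letters of the window and does not show that a factor binds there.

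Gene counts came to between 15110824 and 18792939 per mutant library and between 11912469 and 15839701 per control library. The 10 genes had between 89 counts (Etv4, control replicate 2) and 4977 counts (Spred1, mutant replicate 2). Pdgfra fell to 358 ± 11.9 CPM in mutant cells, against 844 ± 21.1 CPM in control cells (SD, n = 3 each, edgeR adjusted p = 2.75e-06), where CPM are counts scaled to library size with TMM factors. Counts per gene do not separate reads of the D842V allele from those of the other Pdgfra allele. Control replicate 1 stood apart on the second principal component, which held 18.2% of the variance. The summed level of 10 stress and early response genes, Fos, Jun and Egr1 among them, was 10620 to 12030 CPM in the mutant libraries, against 5653, 9294 and 9153 CPM in control replicates 1 to 3. The series title names the cells pericytes. Of the pericyte markers, Pdgfrb, Cspg4, Notch3 and Rgs5 were detected in all 6 libraries (Rgs5 at 139 to 405 CPM) and Higd1b was at 0.576 to 1.58 CPM. The fibroblast markers Col1a1 (30620 to 43330 CPM), Col3a1 (45750 to 57690 CPM) and Dcn (1372 to 1554 CPM) were present as well, at higher CPM.

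Spry1 and Etv5 rose in mutant cells, and none of the 10 genes fell. A gene is said to have risen or fallen when its adjusted p (edgeR quasi-likelihood test, Benjamini-Hochberg over all tested genes) was under 0.05. Higher calls made up 8.63% of all tested genes and lower calls 9.13%. The groups did not overlap, with every mutant library above every control library, in the same 2 of the 10 genes, a pattern that 19.2% of all tested genes showed. The reverse pattern was seen in none of the 10 and in 18.6% of all tested genes. The median log2 fold change of mutant over control was 0.22 for the 10 genes and 0.01 for all tested genes, and 7 of the 10 were above 0. Without control replicate 1 the median was 0.05, with 1 gene higher and 1 lower, where 7.83% of all genes tested were called higher and 9.80% lower. Spry1 alone was called when mutant replicate 2, control replicate 2 or control replicate 3 was left out.

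**Figure D1:**
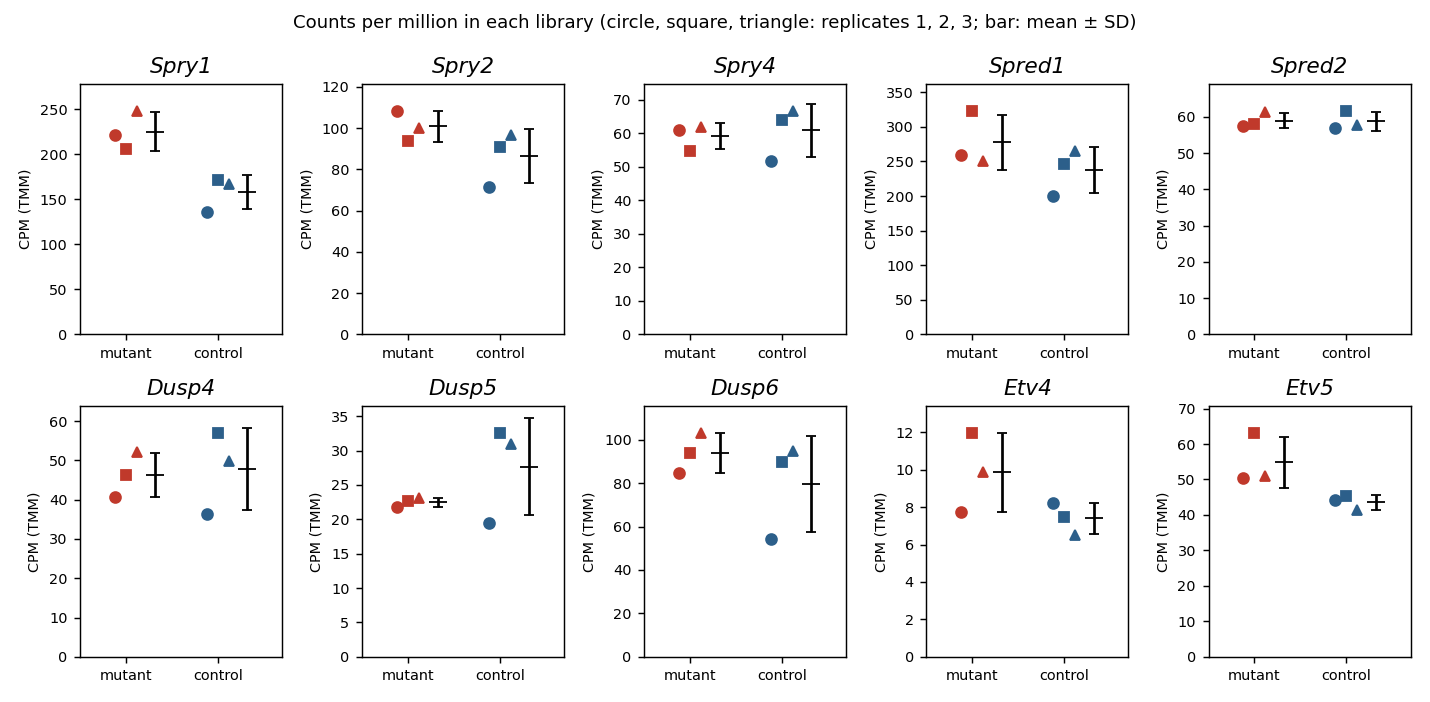
TMM-scaled CPM of the 10 feedback genes in each library, on axes that start at 0, with mutant libraries in red on the left and control libraries in blue on the right. Circles, squares and triangles are replicates 1, 2 and 3, and bars give the mean ± SD of 3 libraries; all mutant values lie above all control values for Spry1 and Etv5 only.

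Among the Sprouty genes, whose products inhibit Ras-ERK signalling, Spry1 rose, while Spry2 and Spry4 were not called. Spry1 (ENSMUSG00000037211) had 222, 205 and 248.5 CPM in mutant replicates 1 to 3, against 136, 171 and 167 CPM in control replicates 1 to 3. Every mutant library was above every control library, with control replicate 1 the lowest. The means were 225 ± 21.8 CPM in mutant cells and 158 ± 19.1 CPM in control cells (SD, n = 3 each), a rise of 42.4%. The log2 fold change was 0.51 (SE 0.10, 95% interval 0.29 to 0.73; edgeR, adjusted p = 0.00657). Spry1 stayed called in all 13 alternative settings, with log2 fold changes of 0.40 to 0.57 and a largest adjusted p of 0.0281.

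Spry2 (ENSMUSG00000022114) had 109, 93.8 and 100.2 CPM in mutant cells, against 71.5, 91.0 and 96.5 CPM in control cells. The groups overlapped, and control replicate 1 was the library that lay low. Its log2 fold change was 0.22 (95% interval -0.01 to 0.46, edgeR adjusted p = 0.175), and it was 0.09 without control replicate 1. Spry4 (ENSMUSG00000024427) had 60.9, 54.7 and 61.7 CPM in mutant cells, against 51.8, 64.0 and 66.8 CPM in control cells. Here mutant values lay inside the control range, with a log2 fold change of -0.04 (95% interval -0.26 to 0.18, edgeR adjusted p = 0.815). The interval leaves room for a change of either sign in Spry4, though not for a rise of the size estimated for Spry1.

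Spry1 was also set against Spry4 and Spry2 within each library. Both ratios hold Spry1, whose own groups did not overlap, as for 19.2% of all tested genes with mutant above. No share over other gene pairs was computed. The ratio of Spry1 to Spry4 counts, which does not depend on how libraries are scaled, was 3.64, 3.75 and 4.02 in mutant libraries, against 2.63, 2.68 and 2.5 in control libraries. The ratio of Spry1 to Spry2 was 2.04, 2.19 and 2.48 in mutant libraries, against 1.91, 1.88 and 1.73 in control libraries. Neither ratio overlapped between the groups, control replicate 1 included. The log2 ratios differed by 0.55 for Spry1/Spry4 and by 0.28 for Spry1/Spry2, each with an exact two-sided permutation p of 0.1, which is the smallest that 3 against 3 libraries can give (0.15 after adjustment over 6 pairs).

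**Figure D2:**
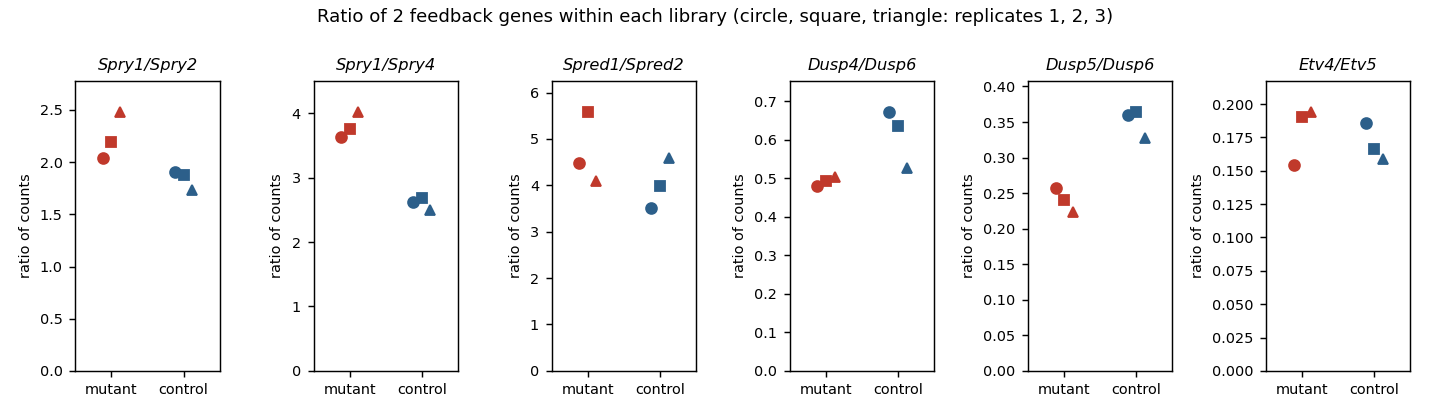
Ratio of the counts of 2 feedback genes within each library, on axes that start at 0, for the 6 pairs compared, with mutant libraries in red on the left and control libraries in blue on the right. Circles, squares and triangles are replicates 1, 2 and 3; the groups do not overlap for Spry1/Spry2, Spry1/Spry4, Dusp4/Dusp6 and Dusp5/Dusp6, and overlap for Spred1/Spred2 and Etv4/Etv5.

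The Spred genes encode membrane-bound relatives of Sprouty that hold back Ras activation, and neither was called. Spred1 (ENSMUSG00000027351) had 259, 324 and 251 CPM in mutant cells, against 200.2, 247 and 266 CPM in control cells. Mutant replicate 2 was the highest library and control replicate 1 the lowest, and the remaining values overlapped (log2 fold change 0.23, 95% interval -0.05 to 0.51, edgeR adjusted p = 0.242). Leaving out control replicate 1 gave Spred1 a log2 fold change of 0.11, and leaving out mutant replicate 2 gave 0.10. Spred2 (ENSMUSG00000045671) had 57.6, 58.0 and 61.4 CPM in mutant cells, against 56.9, 61.8 and 57.7 CPM in control cells. The values of all 6 libraries lay close together, with a log2 fold change of 0.01 (95% interval -0.16 to 0.17, edgeR adjusted p = 0.965). The ratio of Spred1 to Spred2 ranged from 4.09 to 5.58 in mutant libraries and from 3.51 to 4.60 in control libraries, and the ranges overlapped (exact two-sided permutation p = 0.4).

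None of the 3 ERK phosphatase genes was called over all 6 libraries. Dusp6 (ENSMUSG00000019960), which encodes a cytoplasmic phosphatase selective for ERK, had 84.6, 94.0 and 103 CPM in mutant cells, against 54.2, 89.6 and 94.7 CPM in control cells. Control replicate 1 lay far below the other 5 libraries, which overlapped. The log2 fold change of Dusp6 was 0.24 (95% interval -0.30 to 0.79, edgeR adjusted p = 0.502), and it was 0.02 without control replicate 1. Dusp4 (ENSMUSG00000031530), which encodes a nuclear phosphatase of MAP kinases, had 40.7, 46.2 and 52.0 CPM in mutant cells, against 36.4, 57.0 and 49.7 CPM in control cells. The mutant values of Dusp4 lay within the control range (log2 fold change -0.04, 95% interval -0.42 to 0.34, edgeR adjusted p = 0.903). The log2 fold change of Dusp4 was -0.21 without control replicate 1 (edgeR adjusted p = 0.197) and 0.10 without control replicate 2.

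Dusp5 (ENSMUSG00000034765), a nuclear phosphatase selective for ERK and the gene with the pair of CArG boxes printed above, had 21.7, 22.6 and 23.1 CPM in mutant cells, against 19.5, 32.6 and 30.9 CPM in control cells. The mutant libraries were close together, with an SD of 0.676 CPM, and lay between control replicate 1 and the other control libraries. Over all 6 libraries Dusp5 was not called (log2 fold change -0.29, 95% interval -0.68 to 0.09, edgeR adjusted p = 0.270). Without control replicate 1 it fell by 0.51 on the log2 scale (95% interval -0.72 to -0.30, edgeR adjusted p = 0.00364). Relative to Dusp6 it was lower in every mutant library, with Dusp5/Dusp6 ratios of 0.257, 0.241 and 0.224 in mutant cells, against 0.360, 0.364 and 0.327 in control cells. That difference of -0.54 on the log2 scale included control replicate 1 and had an exact two-sided permutation p of 0.1, the smallest possible. Dusp4/Dusp6 was also lower throughout, at 0.481 to 0.504 in mutant cells and 0.526 to 0.672 in control cells, with the same p. Both ratios hold Dusp6, and no share over other gene pairs was computed.

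Etv5 rose and Etv4 was not called, with the highest value of both in mutant replicate 2. Etv5 (ENSMUSG00000013089) had 50.4, 63.1 and 50.9 CPM in mutant cells, against 44.1, 45.3 and 41.3 CPM in control cells. No mutant library reached down to the control range, and the 3 control libraries lay close together. The means were 54.8 ± 7.21 CPM in mutant cells and 43.6 ± 2.07 CPM in control cells (SD, n = 3 each), a rise of 25.8% (log2 fold change 0.33, SE 0.10, 95% interval 0.12 to 0.54, edgeR adjusted p = 0.0343). The call was lost without mutant replicate 2 (0.22, adjusted p = 0.119) and without control replicate 1, 2 or 3 (edgeR adjusted p = 0.0534, 0.0690 and 0.118).

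Etv4 (ENSMUSG00000017724), the least abundant of the 10 genes, had 7.72, 11.96 and 9.87 CPM in mutant cells, against 8.20, 7.47 and 6.53 CPM in control cells. The groups overlapped through mutant replicate 1, which lay below control replicate 1. Its log2 fold change was larger than that of Etv5 but less certain, at 0.41 (95% interval 0.04 to 0.79, edgeR adjusted p = 0.119). It was 0.25 without mutant replicate 2 (edgeR adjusted p = 0.368). The Etv4/Etv5 ratio was 0.154 to 0.194 in mutant libraries and 0.159 to 0.186 in control libraries, an overlap (exact two-sided permutation p = 0.7).

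**Figure D3:**
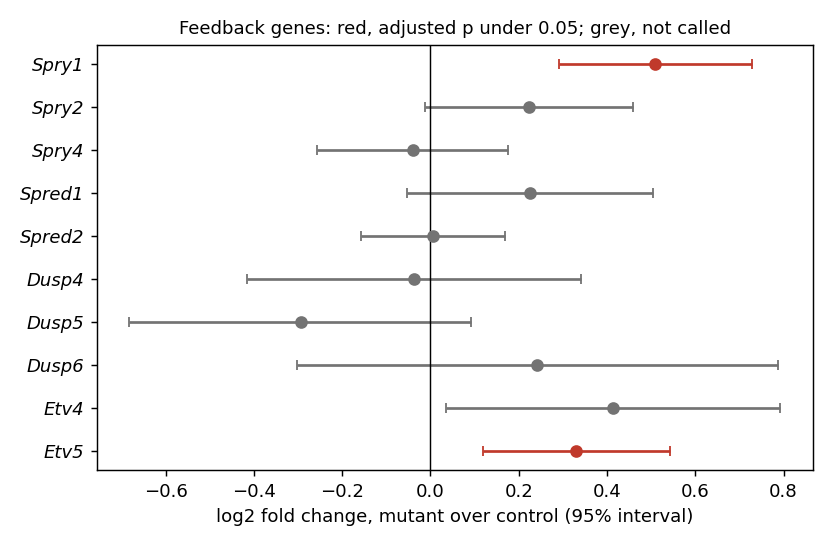
Log2 fold change of mutant over control for each feedback gene, with 95% intervals from the edgeR fit over 3 mutant and 3 control libraries. Red points are genes with an adjusted p under 0.05, Spry1 at 0.51 and Etv5 at 0.33, and grey points are the 8 genes that were not called.

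Levels of different genes were compared as FPKM, which divides the CPM by the exon length in kilobases. Spry1 was the most abundant transcript per length, at 77.5 ± 7.497 FPKM in mutant cells and 54.4 ± 6.56 FPKM in control cells, with an SD over 3 libraries in each group. Spry2 followed, at 48.3 ± 3.53 FPKM in mutant cells and 41.4 ± 6.30 FPKM in control cells, then Spred1, at 40.9 ± 5.88 FPKM in mutant cells and 35.0 ± 4.97 FPKM in control cells. Dusp6 came next, at 30.0 ± 2.96 FPKM in mutant cells and 25.4 ± 7.04 FPKM in control cells (SD, n = 3 each). Dusp4, Spred2, Spry4, Etv5 and Dusp5 had 6-library means between 17.2 and 10.1 FPKM. Etv4 was last, with 3.17 ± 0.684 FPKM in mutant cells and 2.38 ± 0.269 FPKM in control cells. The ranges over 6 libraries overlapped between each pair of neighbours in this order except Dusp5 and Etv4. Compared within each library, Spry1 was above Spry2, Spred1 above Dusp6, Dusp6 above Dusp4 and Dusp4 above Spred2 in all 6. The order changed between libraries for Spry2 and Spred1, and for the neighbours from Spred2 through Spry4 and Etv5 to Dusp5, and is not resolved there.

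The genes also varied within the control group. Control replicate 1 was the lowest of the 6 libraries for 8 of the 10 genes, all but Etv4 and Etv5, whereas it was the lowest library for 18.2% of all tested genes. Set against the mean of control replicates 2 and 3, Dusp6 was lower there by 0.76, Dusp5 by 0.70 and Dusp4 by 0.55 on the log2 scale, Spry2 by 0.39, Spred1 by 0.36, Spry4 by 0.34 and Spry1 by 0.31. Spred2 (-0.07), Etv5 (0.03) and Etv4 (0.23) differed little or lay higher. Early response genes, chosen after their values were seen, deviated the same way in that library, Fos by -0.92, Dusp1 by -0.84, Egr2 by -0.81 and Egr1 by -0.73. Other genes, also chosen after their values were seen, stood higher in that library. Among them were Lyz2 (2.12), Adgre1 (1.88) and Ptprc (1.098) of the macrophage list and the melanocyte marker Tyr (0.87). The heat shock genes Hspa1a and Hspa1b (each 0.68) were others. Not all genes of these lists did so: Cd68 (-0.018) and Mrc1 (0.002) of the macrophage list and the melanocyte marker Mitf (-0.005) hardly differed. The median of the macrophage list was 0.44. The part of these differences of control replicate 1 in the differences of the feedback genes was not tested. With that library left out, the log2 fold changes of mutant over control were 0.40 for Spry1, -0.16 for Spry4, -0.03 for Spred2, 0.49 for Etv4 and 0.33 for Etv5, and those of the other 5 genes stand beside them above.

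**Figure D4:**
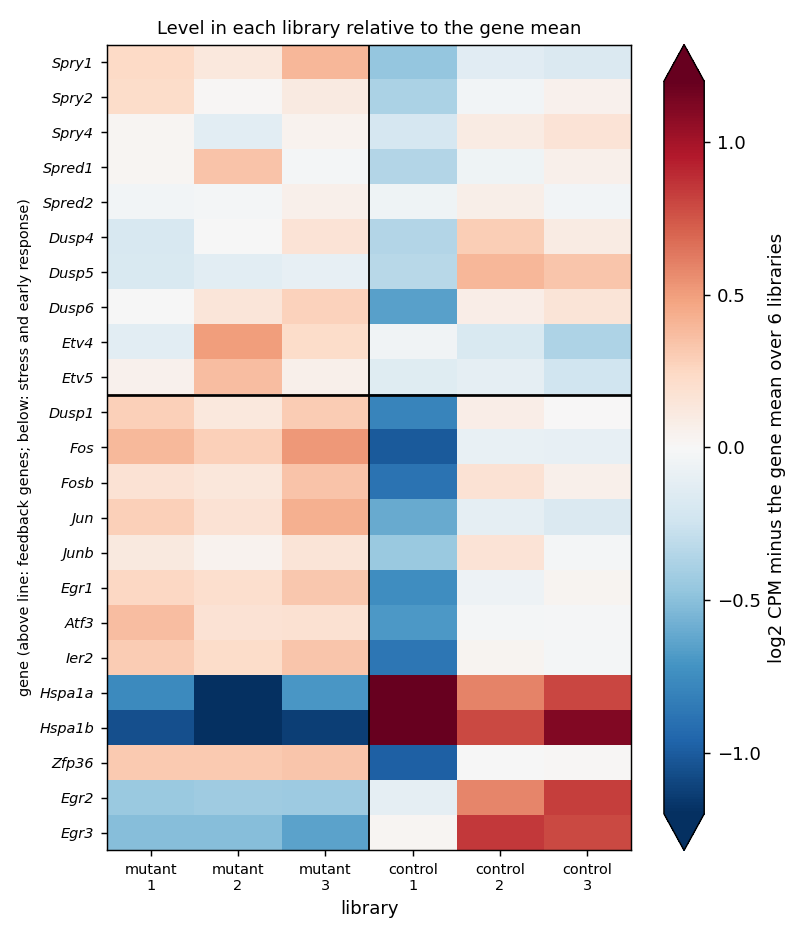
Log2 CPM of each gene minus its mean over 6 libraries, in columns for mutant replicates 1 to 3 (left) and control replicates 1 to 3 (right), with the 10 feedback genes above the line and stress and early response genes below it. Blue is below and red above the gene's mean, and colours end at 1.2 in either direction, which Hspa1a and Hspa1b pass; the column of control replicate 1 is blue for most feedback genes and for Fos, Jun, Egr1 and Dusp1.

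By the rule for genes with the most similar pattern, Zfp622, Perp and Gdpd2 followed Spry1 most closely over the 6 libraries, with Pearson correlations of log2 CPM of 0.998, 0.996 and 0.994 among 10886 genes searched. These values describe 6 libraries that fall into 2 groups, so they mix the group difference with the spread within groups. Zfp622 had 47.1, 45.3 and 49.2 CPM in mutant cells, against 36.6, 40.8 and 40.3 CPM in control cells, with control replicate 1 lowest as for Spry1.

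Other feedback inhibitors of the pathway included 1 gene that rose and 1 that fell among 11 tested (Spry3 matched no row). Over all tested genes, 8.63% were called higher and 9.13% lower. Il17rd, which encodes a membrane inhibitor of FGF receptor signalling, had 50.1, 65.3 and 65.4 CPM in mutant cells, against 44.0, 46.6 and 38.7 CPM in control cells. The groups did not overlap, and the rise was 0.49 on the log2 scale (95% interval 0.24 to 0.73, edgeR adjusted p = 0.0137). Cbl, which encodes a ubiquitin ligase that sends active receptors for degradation, fell to 28.5 ± 0.969 CPM in mutant cells, against 37.6 ± 1.24 CPM in control cells (SD, n = 3 each; log2 fold change -0.40, edgeR adjusted p = 0.00709). The median of this list was 0.15. The call of Il17rd was lost without mutant replicate 3 (adjusted p = 0.0559) and without control replicate 3 (0.0638), and the list median moved to 0.01 when control replicate 1 was left out, to 0.06 for mutant replicate 3 and to 0.08 for mutant replicate 2.

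Of 7 other MAP kinase phosphatase genes, Dusp2 fell and none rose, with a list median of 0.17 that ranged from 0.05 to 0.28 when 1 library was left out. Lower calls made up 9.13% of all tested genes and higher calls 8.63%. Dusp2, an inducible nuclear phosphatase, had 3.62, 4.10 and 4.06 CPM in mutant cells, against 5.44, 6.29 and 7.23 CPM in control cells. The groups did not overlap (log2 fold change -0.68, edgeR adjusted p = 0.0205). Leaving out mutant replicate 1 or 3, or control replicate 2 or 3, ended this call (edgeR adjusted p = 0.0546 to 0.0881).

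Of 14 further output genes of ERK signalling, 2 fell and none rose, with a median log2 fold change of -0.14. The shares over all tested genes were 9.13% lower and 8.63% higher. Epha2, which encodes an ephrin receptor and is used in transcript scores of ERK activity, had 13.6, 11.2 and 13.3 CPM in mutant cells, against 21.9, 25.1 and 21.9 CPM in control cells. Every mutant library lay well below every control library (log2 fold change -0.85, 95% interval -1.10 to -0.60, edgeR adjusted p = 0.000757). Egr3, an early response transcription factor gene, had 16.4, 16.5 and 14.99 CPM in mutant cells, against 23.8, 42.0 and 40.4 CPM in control cells, and fell by 1.15 on the log2 scale (edgeR adjusted p = 0.0108).

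Fos and Egr2, both early response transcription factor genes, lay on opposite sides of their control range. They lie outside the rule for named genes and were chosen after their values were seen. In CPM, Fos had 2496, 2331 and 2749 CPM in mutant cells, against 949, 1798 and 1791 CPM in control cells, and was not called (log2 fold change 0.74, edgeR adjusted p = 0.105). Egr2 had 55.1, 55.7 and 55.5 CPM in mutant cells, against 69.8, 112 and 134 CPM in control cells (log2 fold change -0.92, edgeR adjusted p = 0.0534). In both genes control replicate 1 lay below the other control libraries. Without it, Fos rose by 0.48 on the log2 scale (edgeR adjusted p = 0.00386), Egr2 fell by 1.16 (2.2e-06) and Egr3 fell by 1.38 (1.46e-06). The list then held 5 lower genes and 1 higher, where 9.80% of all genes tested were lower and 7.83% higher. The list median was -0.28. The median was -0.06 without control replicate 2, and falls numbered 1 without mutant replicate 2 or 3, where Egr3 lost its call (adjusted p = 0.0588 and 0.0614).

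The kinase relay from receptor to ERK was close to level between the groups, with 1 of 20 genes called. Of all tested genes, 8.63% were called higher and 9.13% lower. Mapk3, which encodes a form of ERK itself, had 108, 109 and 110.2 CPM in mutant cells, against 92.2, 89.1 and 84.1 CPM in control cells. The groups did not overlap (log2 fold change 0.30, edgeR adjusted p = 0.0133), and the list median was 0.01. The call was lost without mutant replicate 3 and without control replicate 3 (adjusted p = 0.0542 and 0.0504), and 2 genes were higher without mutant replicate 1.

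Of 12 receptor genes, 2 were called higher and 2 lower, Pdgfra among the lower, with a median of -0.04. Of all tested genes, 8.63% were called higher and 9.13% lower. Beside Pdgfra, Kit, a receptor of mast cells and melanocytes, fell by 1.03 on the log2 scale to 17.1 ± 5.06 CPM in mutant cells, against 35.1 ± 6.86 CPM in control cells (SD, n = 3 each, edgeR adjusted p = 0.0342). Fgfr1, a receptor of fibroblasts and their relatives, had 699, 772 and 746 CPM in mutant cells, against 506, 616 and 600 CPM in control cells (log2 fold change 0.37, edgeR adjusted p = 0.0177). Met, the receptor for hepatocyte growth factor, rose by 0.55 on the log2 scale (edgeR adjusted p = 0.0268). Pdgfrb had 219, 227 and 240 CPM in mutant cells, against 263, 226 and 227 CPM in control cells, and was not called (log2 fold change -0.06, edgeR adjusted p = 0.641). Among rises, the call of Fgfr1 was lost without mutant replicate 2 or 3 (adjusted p = 0.0517 and 0.0602) and that of Met without mutant replicate 1 or 3 or control replicate 3 (0.0857 to 0.107), so that no receptor was higher without mutant replicate 3. The call of Kit was lost without mutant replicate 1 or control replicate 2 or 3 (0.0650 to 0.0927), and without control replicate 1 there were 3 lower receptors.

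Of 10 other Ets factor genes, 2 rose and 2 fell, with a median of 0.02, where 8.63% of all tested genes rose and 9.13% fell. Etv6, a repressor of the family, had 54.0, 60.6 and 54.3 CPM in mutant cells, against 40.5, 43.0 and 43.3 CPM in control cells (log2 fold change 0.41, edgeR adjusted p = 0.00560). Elk1, a partner of serum response factor and a target of ERK, rose by 0.39 on the log2 scale (adjusted p = 0.0425), while Ets2, an ERK-activated factor, fell by 0.33 (0.0135) and Erf, an ERK-regulated repressor, by 0.28 (0.0401). Etv6 stayed called in all alternatives. The calls of Elk1 and Erf were lost on leaving out any library except control replicate 1 (up to an edgeR adjusted p of 0.131 for Elk1 and 0.171 for Erf), and that of Ets2 without mutant replicate 3 or control replicate 2 (0.0576 and 0.0530). Without control replicate 1 there were 3 lower genes.

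**Figure D5:**
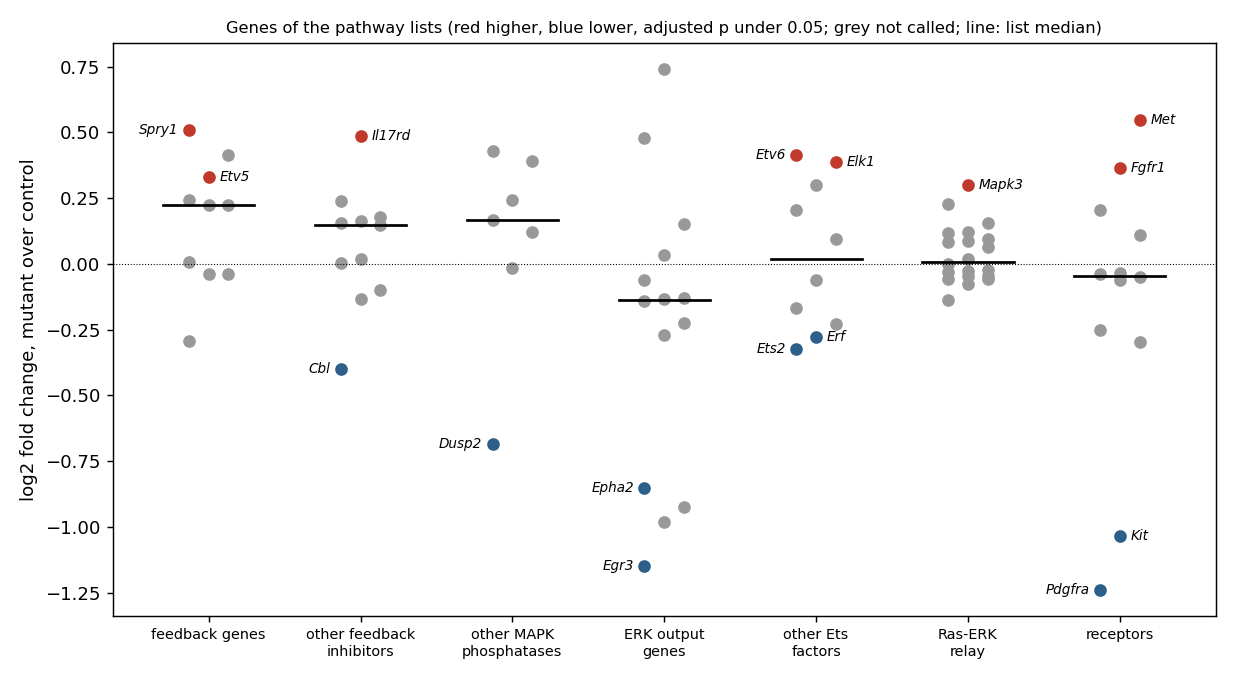
Log2 fold change of mutant over control for each tested gene of the 10 feedback genes and of 6 further pathway lists, with a black line at each list's median. Red and blue points are genes called higher and lower at an adjusted p under 0.05, grey points were not called; the feedback genes have a median of 0.22 and the further ERK output genes a median of -0.14.

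The sorted cells were measured in bulk, so a change in the share of a cell type and a change in RNA per cell cannot be told apart. Marker lists of other cell types moved with the genotype. The counts below stand beside 8.63% of all tested genes called higher and 9.13% lower. The summed level of 10 skeletal muscle markers was 219 to 321 CPM in mutant libraries and 99.1 to 120 CPM in control libraries, with 7 higher, of which Cdh15 (log2 fold change 1.14) and Myod1 (1.26) had the smallest adjusted p and Myog (1.79) and Actc1 (1.78) the largest change. That of 10 endothelial markers was 266 to 366 CPM in mutant libraries and 158 to 194 CPM in control libraries, with 5 higher, of which Lyve1 (log2 fold change 1.49) and Tek (0.75) had the smallest adjusted p. That of 8 keratinocyte markers was 841.7 to 1046 CPM in mutant libraries and 409 to 691 CPM in control libraries, with 4 higher, and control replicate 1 again lowest.

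The remaining lists overlapped more or were small. The 6 mast cell markers summed to 106 to 124 CPM in mutant libraries and 79.6 to 97.3 CPM in control libraries, without overlap. Of the 5 tested, 3 were higher, Tpsb2 and Cpa3 among them, and Kit was lower. Fcer1a was at no more than 0.065 CPM and was not tested. The 10 Schwann cell and melanocyte markers summed to 279 to 438 CPM in mutant libraries and 422 to 556 CPM in control libraries, with Mitf among 2 lower. The 8 macrophage markers summed to 221 to 262 CPM in mutant libraries and 171 to 307.5 CPM in control libraries, an overlap, with Fcgr3 higher (adjusted p = 0.0393, and 0.0609 to 0.124 without mutant replicate 1 or 3 or control replicate 2 or 3). The 12 pericyte markers summed to 1443 to 1870 CPM in mutant libraries and 1581 to 2012 CPM in control libraries, an overlap, with Kcnj8 and Abcc9 higher. The median log2 fold change of these 12 was 0.02, and 6 were above 0. Rgs5 (-0.72), Acta2 (-0.44) and Cspg4 (-0.26) were among those below 0, and none of these was called. The 10 fibroblast markers summed to 82050 to 97630 CPM in mutant libraries and 92930 to 105700 CPM in control libraries, an overlap, with Clec3b higher and Pdgfra among 2 lower. In the stress and early response list Jun was higher (log2 fold change 0.58) and the heat shock gene Hspa1b lower (-2.40), a near-identical copy of Hspa1a whose reads are uncertain. The part of these cell types and of this stress response in the values of Spry1, Etv5 and the other feedback genes was not tested.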

How the data were processed

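Processed counts of 6 RNA-seq libraries, 3 mutant and 3 control, were used. The authors deposited 1 table of read counts per Ensembl gene and library. Per the submitters' processing notes, reads were handled against mm9; the notes list TopHat2 2.0.4, cutadapt 1.1, DESeq2, FastQC and HTSeq 0.5.3 and do not say what each did. No source used here gives the strand setting, so reads of antisense partners could not be told apart. The 5 rows that name no gene held 36.9% to 41.7% of listed reads and were left out. Symbols matched 86.6% of gene rows and 99.3% of counts. Exon lengths came from GENCODE vM21 (GRCm38), a later build than the counts.

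Counts were filtered with filterByExpr (minimum count 10, minimum total 15), scaled by TMM and tested across all genes with edgeR 4.0.16 in R 4.3.3 (quasi-likelihood F test, robust, group as the only term), with Benjamini-Hochberg adjustment and a threshold of 0.05. The SE is the log2 fold change divided by the square root of F, and intervals are at 95%. Log2 CPM used a prior count of 2. Ratios of 2 genes used counts plus 0.5 and an exact permutation test over 6 pairs. The script was tested on simulated counts. Alternatives were DESeq2 1.42.0, limma-voom (limma 3.58.1), other scalings and filters, a replicate block and each library left out.

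The members, lists and tests were chosen with earlier results of these data known. Named genes were the 10 members, Pdgfra, Pdgfrb and Nes, up to 4 called genes per pathway list and 2 per marker list with the smallest adjusted p (or the most abundant where none was called), and the 3 genes most correlated with the member of smallest adjusted p, with a mean of at least 5 CPM. Nes had 84.3 ± 13.5 CPM in mutant cells and 74.4 ± 5.83 CPM in control cells (SD, n = 3 each) and was not called. Within a group, the chi-square of each pair of libraries over its degrees of freedom was 4.73 to 13.3, above sampling noise, and each library counted separately. The labels do not say whether replicates are separate mice, and 3 libraries a group limit the precision. A marker gene that the rule would name is not reported here.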

Additional observations from a re-analysis of the deposited data

How the results depend on the processing

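With 1 library left out, the 10 feedback genes numbered 1 to 2 higher and 0 to 1 lower, with a median log2 fold change of 0.054 to 0.301. All tested genes numbered 658 to 1199 higher and 753 to 1500 lower, with the fewest of each without mutant replicate 3. Spry1 stayed called under all 13 alternatives, Etv5 lost its call in 4 and Dusp5 gained one in 1, all with a library left out. Among the 42 named genes, the sign turned for Spry4 (-0.156 to 0.031), Spred2 (-0.027 to 0.04, and -3.5e-05 with no filter), Dusp4 (-0.211 to 0.103) and Pdgfrb (-0.102 to 0.004). Over these genes and 546 values, 491 kept direction and call, 45 lost a call, 1 gained one and 9 turned sign.

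Leaving out 1 library gave 0 to 1 higher and 1 to 5 lower ERK output genes (median -0.282 to -0.064), 0 to 1 lower other phosphatases, 0 to 1 higher other feedback inhibitors (median 0.008 to 0.168), 0 to 2 higher relay genes, 0 to 2 higher and 1 to 3 lower receptors, and 1 to 2 higher and 0 to 3 lower other Ets genes. Upper quartile scaling gave 1 higher other phosphatase, 2 higher relay genes and 1 lower other Ets gene. With no filter 2 other feedback inhibitors were higher, and the DESeq2 test gave 4 lower ERK output genes. With the replicate block, 2 other feedback inhibitors and 1 receptor were higher, and all genes numbered 1328 higher and 1439 lower. Deviations of same-numbered libraries correlated at 0.12, -0.03 and -0.09, and those of differently numbered libraries at -0.10 to 0.16. With 3 libraries a group this cannot decide whether the numbers pair the samples, and the labels do not say. The cause of these changes was not tested. The 6 log2 ratios kept their sign in every setting. The 95% interval of Dusp6, -0.30 to 0.79, includes the change seen for Etv5, which was not detectable there with 3 libraries a group.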
